A study of Mus musculus with 47 samples.

Results

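The genes described here serve antigen presentation by major histocompatibility complex (MHC) class I, and 10 of them were taken from the 14221 genes of the count table of the mouse hypothalamus by their symbols. They are B2m, H2-K1, H2-D1, H2-Q1, H2-T23, Tap1, Tapbp, Psmb8, Psmb9 and Nlrc5, and all 10 had values. H2-Q1 was picked by its low level on Day 1 after FGF1, so its Day 1 values are given as a description with no test and it is left out of the Day 1 counts. The other members were given by name, as genes of the pathway.

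The mice were male Lep ob/ob animals, which lack leptin and are obese, and their labels give an age of 11 weeks. A single icv (intracerebroventricular) injection delivered 3 µg of human fibroblast growth factor 1 (FGF1) or vehicle, and vehicle-treated mice were pair-fed to the intake of FGF1-treated mice. Hypothalami of separate mice were collected on Days 1, 5 and 42, with 1 mRNA library for each of 47 mice. On Day 1 the FGF1 group had 10 mice and the vehicle group 4. On Day 5 the FGF1 group had 9 mice, compared with 7 vehicle-treated mice labelled non-diabetic and 7 labelled diabetic. The study's methods give a single vehicle group for that day, with fewer mice than these labels list, and do not say which it was, so both were used here. The methods also say that Lep ob/ob mice below a set blood glucose were not taken as diabetic and were left out, while the labels call most vehicle-treated mice non-diabetic, and what that label stands for is not given in the sources used here. Each group of Day 42 had 5 mice, and its vehicle-treated mice were labelled non-diabetic, as on Day 1. All groups, controls included, carried the Lep ob/ob genotype and were housed singly. Total counts ran from 1.24 M to 47.1 M per library, the lowest being that of FGF1-treated mouse 17 of Day 1, and from 7.58 M to 12.5 M in the vehicle-treated mice of Day 5. Days were separate cohorts, so a difference between days and one between cohorts cannot be told apart. All 12 hypothalamic marker genes looked up, such as Agrp, Pomc and Avp, had a level above 1 CPM, counts scaled to 1000000 per library, in every group.

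Class I molecules show peptides from inside a cell to CD8 T cells. Proteasomes cut proteins to peptides, and interferon exchanges their catalytic subunits for immunoproteasome subunits such as Psmb8 and Psmb9. A transporter of which Tap1 is a chain pumps peptides into the endoplasmic reticulum, tapasin (Tapbp) holds the empty heavy chain beside it, and the heavy chain pairs with beta-2 microglobulin (B2m) before it reaches the surface. H2-K1 and H2-D1 are the classical, highly polymorphic heavy chains, H2-T23 encodes the non-classical Qa-1, a ligand of receptors on natural killer cells, and H2-Q1 is a non-classical heavy chain gene of the Q region. Nlrc5 is the transcriptional activator of class I genes and is itself induced by interferon. Neurons of the healthy brain carry little class I, while microglia and endothelial cells carry more.

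Of the members, 8 lie in the MHC on chromosome 17 of the GRCm38 build, where H2-Q1 spans chr17:35320405-35325099 on the plus strand, H2-D1 chr17:35262730-35267499 on the plus strand, H2-K1 chr17:33996017-34000347 on the minus strand and H2-T23 chr17:36029773-36032855 on the minus strand. Psmb9 (chr17:34181987-34187764, minus) and Tap1 (chr17:34187553-34197225, plus) share a start region and overlap in exon sequence, so their counts are certain only where reads were counted by strand, which is not given in the sources used here. Psmb8 lies at chr17:34197721-34201454 and Tapbp at chr17:33915899-33929292, both on the plus strand. Exons of Psmb8 overlap Gm20496 on the other strand, and those of Tapbp overlap Zbtb22 on the same strand and Gm19412 on the other. B2m lies outside the MHC at chr2:122147686-122153083 on the plus strand. Nlrc5 lies at chr8:94434356-94527272 on the plus strand, where its exons overlap those of 9330175E14Rik on the other strand.

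The heavy chain genes resemble each other, and this bears on how reads are assigned to them. Over aligned coding bases, H2-K1 was 91.5% identical to H2-D1, 86.7% to H2-Q1 and 82.3% to H2-T23. Of all runs of 50 bases in the transcripts, 9.63% in H2-K1, 12.8% in H2-D1, 15.0% in H2-Q1 and 13.6% in H2-T23 also occurred in another gene, against at most 2.87% in the other members. The values of the heavy chains are therefore uncertain to the extent that shared reads were split or dropped. The stretch of 90 coding bases without gaps in which H2-Q1 differs most from H2-K1 is shown, from the reference annotation, to let the genes be told apart by eye. It lies in exon 3 of each gene, at chr17:33999455-33999544 for H2-K1, chr17:35263841-35263930 for H2-D1, chr17:35321277-35321366 for H2-Q1 and chr17:36031822-36031911 for H2-T23. Each is written 5′ to 3′ on the strand of its gene, and capitals mark bases that differ from H2-K1.
H2-K1: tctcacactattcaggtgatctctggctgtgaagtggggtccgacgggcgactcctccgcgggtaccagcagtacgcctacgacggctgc
H2-D1: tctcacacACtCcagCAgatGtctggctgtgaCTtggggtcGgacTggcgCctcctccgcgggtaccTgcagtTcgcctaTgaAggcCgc
H2-Q1: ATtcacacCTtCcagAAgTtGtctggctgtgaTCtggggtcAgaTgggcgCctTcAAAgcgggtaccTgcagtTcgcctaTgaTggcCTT
H2-T23: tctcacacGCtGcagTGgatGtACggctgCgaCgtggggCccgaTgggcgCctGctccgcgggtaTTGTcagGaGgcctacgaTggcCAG
H2-D1 differed from H2-K1 at 16 of these bases, H2-T23 at 24 and H2-Q1 at 25.

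Promoter sequences were held by the RefSeq table (GRCm38.p6) for 8 of the 10 members, all but H2-Q1 and Nlrc5. Those of B2m and H2-K1, the common light chain and a classical heavy chain, are shown because these genes were high together in 1 mouse described at the end. The sequences stop at the annotated start of the first exon, at chr2:122147437-122147685 on the plus strand for B2m and chr17:34000348-34000597 on the minus strand for H2-K1. Capitals mark the letters of interferon-stimulated response elements (GAAANNGAA or GAANNGAAA) and of CCAAT boxes on either strand.
B2m: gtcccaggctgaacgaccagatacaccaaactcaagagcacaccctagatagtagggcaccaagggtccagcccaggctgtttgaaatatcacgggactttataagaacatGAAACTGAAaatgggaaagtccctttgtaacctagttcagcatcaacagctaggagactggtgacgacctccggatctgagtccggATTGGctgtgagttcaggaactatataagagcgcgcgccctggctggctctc
H2-K1: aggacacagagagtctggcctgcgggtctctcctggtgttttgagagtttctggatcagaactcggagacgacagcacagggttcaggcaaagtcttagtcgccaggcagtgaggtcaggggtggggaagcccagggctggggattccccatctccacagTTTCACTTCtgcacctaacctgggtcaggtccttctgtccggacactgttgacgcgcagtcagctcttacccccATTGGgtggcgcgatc
In the 250 bases before the start, GAAANNGAA was present in 2 of 8 members, B2m and H2-T23, and in 7.13% of all 32851 promoters. GAANNGAAA, which was added after the sequences had been read, was present in 2 of 8, H2-K1 and H2-D1, and in 6.31% of all promoters. CCAAT was present in 7 of 8, all but Psmb8, and in 33.8% of all. The gamma-activated site (TTCNNNGAA) was present in 1 of 8, Psmb8, and in 7.02% of all. These matches are letters in a window and no evidence that a factor binds there.

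The members spanned a wide range of levels. Per kilobase of exon, the median level over the 47 libraries was 85.4 CPM for B2m, 19.2 for H2-D1, 9.62 for H2-K1, 9.37 for Tapbp, 4.66 for H2-T23, 1.08 for Psmb8, 0.904 for Tap1, 0.689 for H2-Q1, 0.322 for Psmb9 and 0.228 for Nlrc5. B2m was above H2-D1, and H2-D1 above H2-K1, in 47 of 47 libraries, and H2-T23 was above Psmb8 in 47 of 47. H2-K1 and Tapbp, which are neighbours in this order, could not be ranked, since H2-K1 was the higher in 28 of 47 libraries. The 5 lowest members, from Psmb8 to Nlrc5, each stood above the next in 32 or 33 of 47 libraries, so that their order was not the same in all mice. H2-Q1 thus lay far below both classical heavy chains and among the lowest 8.34% of genes of the table on this scale.

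**Figure D1:**
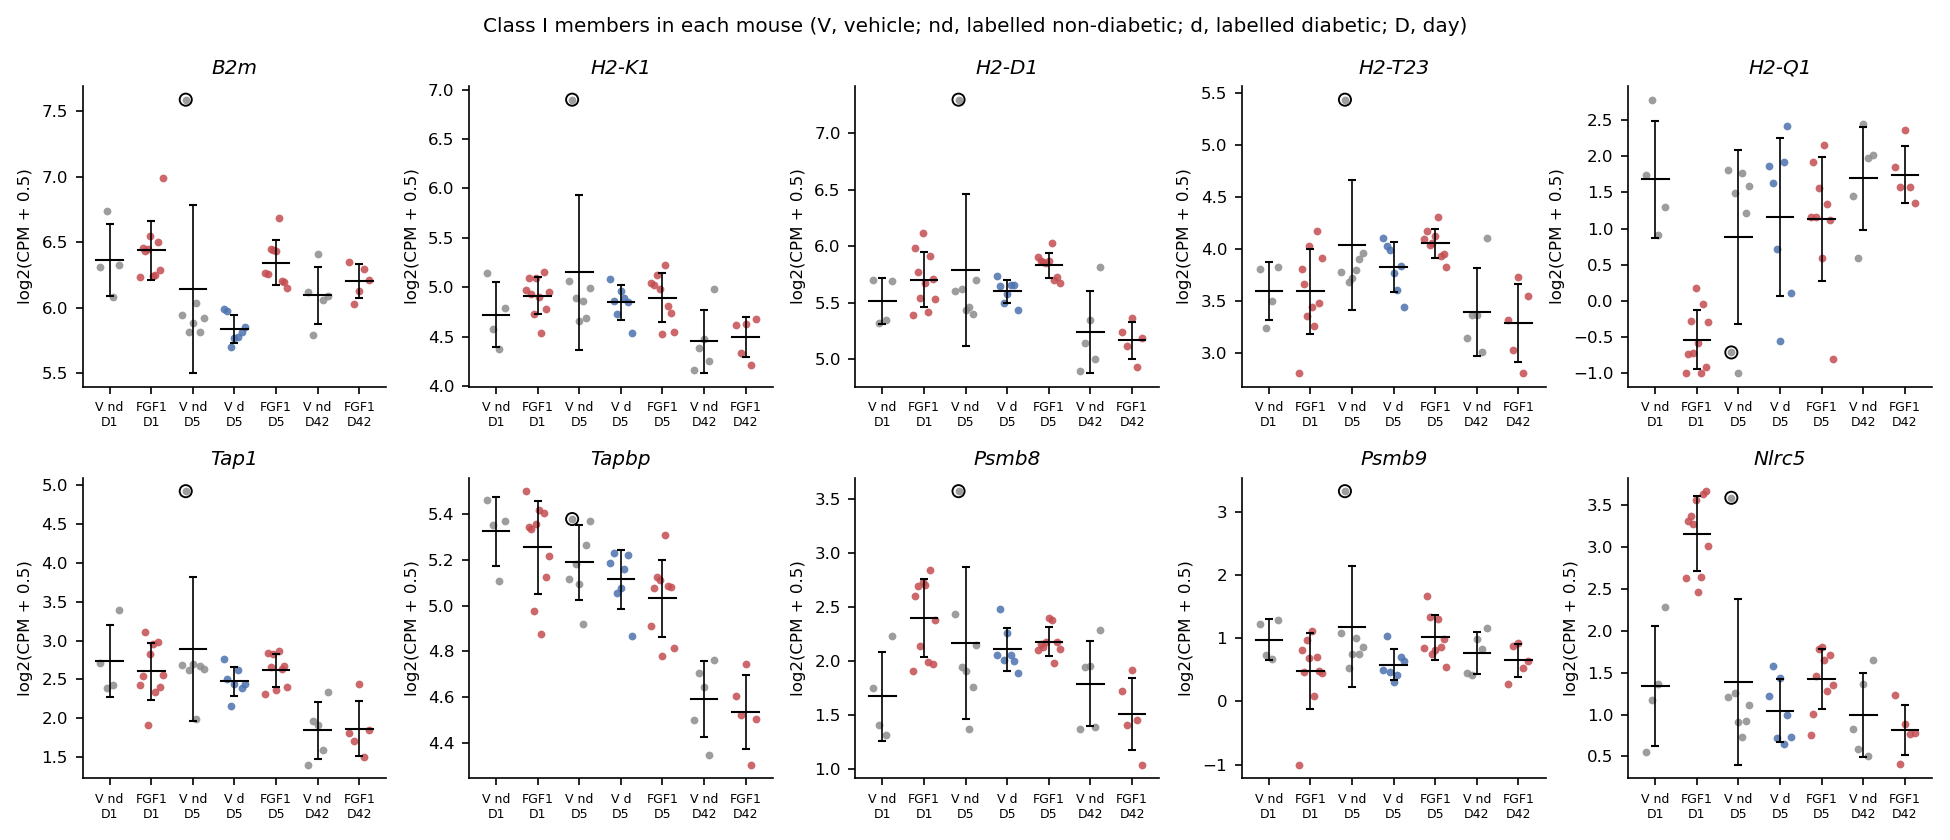
Level of each member as log2(CPM + 0.5), CPM scaled by TMM factors, with 1 point per mouse, the group mean as a line and the SD as a bar; the open ring marks mouse US-1642300. Nlrc5 of all FGF1-treated mice of Day 1 lies above that of all vehicle-treated mice of that day, H2-Q1 of the same mice lies below, and the ringed mouse stands above its group in 9 of 10 panels, all but H2-Q1.

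On Day 1, Nlrc5 and Psmb8 were higher after FGF1, while B2m, H2-K1, H2-D1, H2-T23, Tap1, Tapbp and Psmb9 did not pass the test. Nlrc5, the activator of class I genes, was at 0.96, 1.75, 2.07 and 4.38 CPM in the 4 vehicle-treated mice, and at 5.02 CPM in the lowest, 9.32 in the median and 12.2 in the highest of the 10 FGF1-treated mice. All FGF1-treated mice thus lay above all vehicle-treated mice, as did those of 7.56% of all genes. The fitted log2 fold change of Nlrc5 was 1.97 with an SE of 0.38, and its adjusted p by edgeR's quasi-likelihood test with Benjamini-Hochberg adjustment over 14221 genes was 3.65e-05. In a two-sided exact permutation test over the mice Nlrc5 gave p = 0.000999, the smallest that 10 against 4 mice can give, and 0.0171 after adjustment over the 49 such tests made.

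Psmb8, the immunoproteasome subunit that replaces Psmb5, was at 1.98, 2.15, 2.86 and 4.18 CPM in vehicle-treated mice and from 3.26 to 6.69 CPM, with a median of 5.13, in FGF1-treated mice. The groups overlapped, since 1 vehicle-treated mouse lay within the range of the FGF1-treated mice. The log2 fold change of Psmb8 was 0.85 (SE 0.25, edgeR adjusted p = 0.00477). Its exact permutation p over mice, adjusted over the same 49 tests, was 0.147. These were 2 of 9 members tested that passed both thresholds, an adjusted p under 0.05 and a log2 fold change beyond 0.5 in size, both higher, where 19.5% of all genes passed and 11.5% passed as higher. The share of members that passed was thus close to that of all genes.

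The other 7 members tested on Day 1 had log2 fold changes between -0.47 and 0.21. B2m was from 75.0 to 126 CPM in FGF1-treated mice, with a median of 86.3, and at 67.1, 78.9, 79.8 and 106 CPM in vehicle-treated mice (log2 fold change 0.08, SE 0.19, edgeR adjusted p = 0.745). The ranges of both groups overlapped. H2-K1 had a log2 fold change of 0.18 (SE 0.23, edgeR adjusted p = 0.560), H2-D1 of 0.21 (SE 0.20, adjusted p = 0.390) and H2-T23 of 0.08 (SE 0.22, adjusted p = 0.802). Tap1 was at -0.14 and Tapbp at -0.08. Psmb9, the immunoproteasome subunit that replaces Psmb6, was at -0.47 (SE 0.34, edgeR adjusted p = 0.266). It ranged from 0 to 1.67 CPM in FGF1-treated mice, and its count of 0 in the shallow library of mouse 17 allows up to 2.44 CPM. The median log2 fold change of the 9 members was 0.082, and that of all genes 0.0067.

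H2-Q1 lay apart from the classical heavy chains on Day 1, in the values by which it was picked. It was at 1.37, 1.97, 2.83 and 6.38 CPM in vehicle-treated mice, from 59 to 226 reads. In FGF1-treated mice it ranged from 0 to 0.63 CPM with a median of 0.136, from 0 to 19 reads. Every FGF1-treated mouse was below every vehicle-treated mouse, but the count of 0 in mouse 17 allows up to 2.44 CPM, which is within the vehicle range. The count of 0 in mouse 23, from a deeper library, allows up to 0.0796 CPM. The limits cover counting error only. The share of all genes that lay apart in this direction is not given here, and 19.5% of all genes passed both thresholds on Day 1. The fitted log2 fold change of H2-Q1 was -3.72, and over the alternative settings it ran from -3.97 to -2.69. In libraries 17 to 26, H2-K1 and H2-D1 together had from 89 to 3846 reads, so that these heavy chains were counted in the same libraries.

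**Figure D2:**
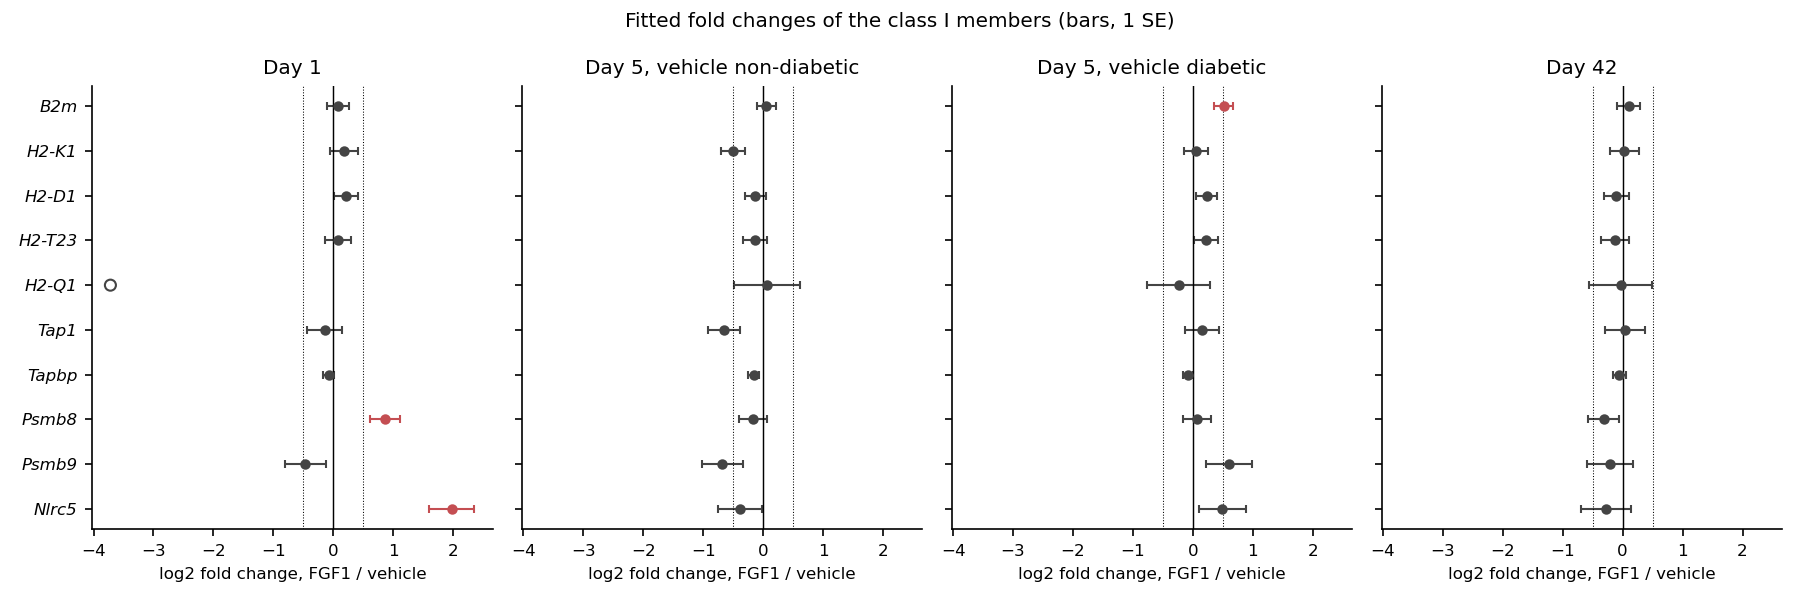
Log2 fold change of FGF1 over vehicle for the 10 members in 4 comparisons, with bars of 1 SE, red where both thresholds were passed and dotted lines at 0.5 and -0.5; the open circle is H2-Q1 on Day 1, which has no error or test. Nlrc5 (1.97) and Psmb8 (0.85) on Day 1 and B2m (0.51) against the diabetic vehicle group on Day 5 are the points that passed.

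Set against the sum of H2-K1 and H2-D1 within each library, which removes the scaling between libraries, H2-Q1 showed the same order on Day 1. For every 1000 reads of H2-K1 and H2-D1, the median was 29 reads of H2-Q1 in vehicle-treated mice (range 22.7 to 101) and 1.78 in FGF1-treated mice (range 0 to 6.14). The mean log2 ratio was -4.74 ± 0.99 (SD, n = 4) after vehicle and -8.88 ± 1.61 (SD, n = 10) after FGF1, with no test, since the gene was picked on these values. The observed ratios did not overlap, but the count of 0 in mouse 17, beside 89 reads of H2-K1 and H2-D1, allows up to 33.7 per 1000, within the vehicle range. On Day 5 the mean log2 ratio was -5.85 ± 1.53 (SD, n = 9) after FGF1, -6.53 ± 2.77 (SD, n = 7) in non-diabetic and -5.60 ± 1.53 (SD, n = 7) in diabetic vehicle-treated mice, and the ranges overlapped. The difference was 0.68 against the non-diabetic (two-sided exact permutation p = 0.547) and -0.25 against the diabetic group (exact permutation p = 0.745), and 0.12 on Day 42 (exact permutation p = 0.794). All 3 stood at 0.794 after Benjamini-Hochberg adjustment, and each changed sign when 1 mouse or the 2 deepest libraries were left out.

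**Figure D3:**
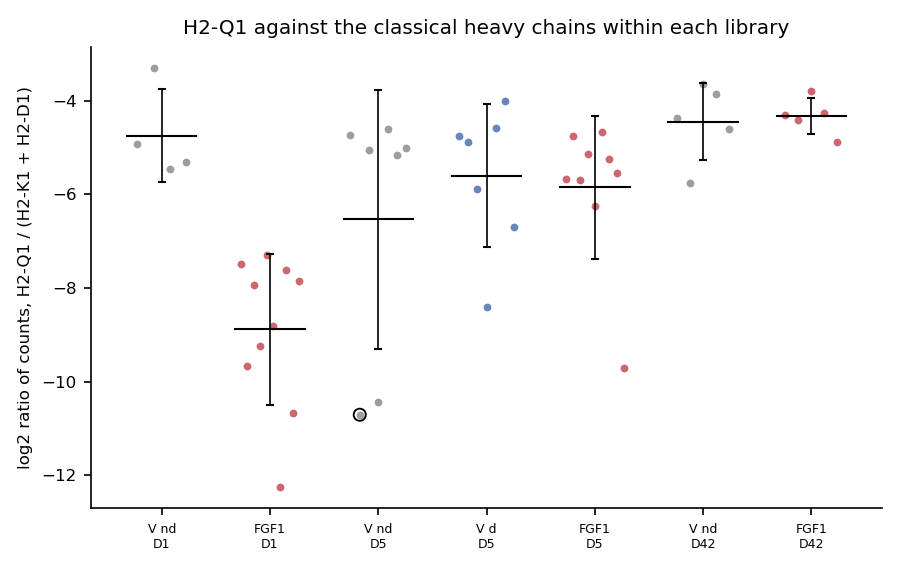
Log2 ratio of H2-Q1 reads to the reads of H2-K1 plus H2-D1, 0.5 added to each, with 1 point per mouse, the group mean as a line and the SD as a bar; the ring marks mouse US-1642300. On Day 1 the FGF1-treated mice (mean -8.88) lie below the vehicle-treated mice (mean -4.74), and on Days 5 and 42 the groups overlap.

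The genes that flank H2-Q1 on the chromosome did not share 1 direction on Day 1. On the side of H2-D1, Ddx39b had a log2 fold change of 0.08 and Atp6v1g2 of -0.26, and neither passed both thresholds. On the other side, H2-Q2, another Q-region heavy chain, was lower (-0.66, SE 0.15, edgeR adjusted p = 0.000347), H2-Q4 did not pass (0.36, SE 0.28, edgeR adjusted p = 0.295) and Tcf19, which is no MHC gene by function, was higher (1.86, SE 0.25, edgeR adjusted p = 2.94e-08). H2-Q2 was at a median of 18.3 CPM in FGF1-treated and 28.7 CPM in vehicle-treated mice. None of the 6 neighbours passed the thresholds on Day 5 or Day 42.

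Of the genes of the pathway, on lists chosen with earlier results of these data known, the share that passed on Day 1, beside 19.5% of all genes, differed from list to list. Some lists hold members again: H2-T23 is among the class I-like molecules, Tap1 and Tapbp among the genes of peptide loading, Psmb8 and Psmb9 among those of the immunoproteasome and Nlrc5 among the regulators. Among the other class I heavy chains and class I-like molecules, 4 of 10 were lower and none higher: Mr1, which presents microbial vitamin metabolites (-0.84, edgeR adjusted p = 2.99e-08), H2-Q2, the iron regulator Hfe (-0.54, edgeR adjusted p = 0.00052) and the lipid-presenting Cd1d1 (-0.52, edgeR adjusted p = 0.00263). Their list had a median log2 fold change of -0.159. Of 10 genes for peptide loading and trimming, 0 passed by edgeR and 4 had an unadjusted p under 0.05, as had 51.6% of all genes. Of 14 constitutive proteasome subunits, 0 passed by edgeR and 5 had an unadjusted p under 0.05. Of 8 immunoproteasome and activator genes, Psmb8 was the 1 that passed. Among 16 regulators of class I transcription, 4 were higher and 1 lower. Besides Nlrc5 these were Nfya, a subunit of the factor that binds CCAAT boxes (1.18, edgeR adjusted p = 6.09e-12), Irf9 (0.92, edgeR adjusted p = 3.16e-06), Rela (0.55) and, lower, Rfx5 (-0.52, edgeR adjusted p = 2.40e-08). Among 29 genes of the interferon response, 7 were higher and 1 lower, the guanylate-binding proteins Gbp2 (1.70, edgeR adjusted p = 0.00267), Gbp5 (1.38, edgeR adjusted p = 0.000328) and Gbp7 (0.98, edgeR adjusted p = 0.000306) being the largest of those higher and Gbp6 (-0.91, edgeR adjusted p = 0.0209) the lower one. The summed level of these 29 genes was 204, 231, 238 and 429 CPM in vehicle-treated mice and 277 to 485 CPM, with a median of 352, in FGF1-treated mice. Vehicle-treated mouse 30, at 429 CPM, lay within the FGF1 range and the other 3 below it. Without that mouse 18 of the 29 were higher and 0 lower, beside 21.7% of all genes called, and of the 16 regulators 7 were higher and 0 lower. Leaving out another vehicle-treated mouse gave 5 to 6 higher, beside 16.4% to 20.6% of all genes called. Without mouse 27 or mouse 29, 2 of the 29 were lower, and without mouse 28 Gbp6 was not called and 0 were lower. Gbp2, Gbp5, Gbp7, Ifi35 and Irgm1 were higher in each of these fits. Of the regulators, Nlrc5, Nfya and Irf9 were higher in each, while Rela was not called without mouse 28 or mouse 29. Without mouse 28, 3 of the 16 regulators were higher and 1 lower. Of 8 class II genes, 3 were higher: Ciita, the class II counterpart of Nlrc5 (1.67, edgeR adjusted p = 0.0199), H2-DMb1 (0.65) and the protease Ctss (0.54), of which Ctss alone was higher without vehicle-treated mouse 28 and Ciita and Ctss without mouse 30. Of 7 interferon receptors and kinases, Ifnar2 was higher (0.63, edgeR adjusted p = 1.29e-06).

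Markers of several cell types moved on the same day, beside 19.5% of all genes called. Of 15 microglia markers 10 were higher and 1 lower, and their summed level was 330 to 464 CPM in FGF1-treated and 268 to 315 CPM in vehicle-treated mice. Of 6 markers of border macrophages and monocytes 5 were higher, with sums of 21.04 to 79.7 against 17.9 to 37.5 CPM. Of 10 oligodendrocyte markers 9 were lower, with sums of 2381 to 4429 against 3983 to 5745 CPM. Of 16 markers of T and NK cells only Lck was in the table (0.55, edgeR adjusted p = 0.0159), so their presence was not measured. Of 12 endothelial markers 3 were higher and 1 lower, and of 10 astrocyte markers 2 were higher and 3 lower. Of 11 tanycyte and ependymal markers 1 was higher and 3 lower, with sums of 106 to 152 against 164 to 225 CPM, and of 12 hypothalamic markers 1 was higher and 3 lower. Of 10 neuron markers 0 passed by edgeR and 4 had an unadjusted p under 0.05, while their sums, 3600 to 4613 CPM after FGF1 and 4713 to 5806 CPM after vehicle, did not overlap. In bulk tissue, fewer cells of a type and less RNA per cell cannot be told apart, and the part of these changes in the values of the members was not tested.

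On Day 5, B2m was the 1 member that passed, in the comparison with the vehicle-treated mice labelled diabetic. Between the vehicle groups of that day it did not pass, as given below. It was from 70.7 to 102.7 CPM in FGF1-treated mice, with a median of 76.5, and from 51.6 to 63.0 CPM, with a median of 55.9, in the diabetic vehicle group. The groups did not overlap, as in 3.63% of all genes in this direction. The log2 fold change was 0.51 (SE 0.16, edgeR adjusted p = 0.0378), just past the threshold of 0.5, and the two-sided exact permutation test gave p = 8.74e-05, the smallest these group sizes allow, and 0.00428 after adjustment. B2m was thus 1 of 10 members called, beside 2.85% of all genes. The median over the 10 members was 0.187, and that of all genes -0.0071. H2-D1, at 50.7 to 64.7 CPM after FGF1 and 42.7 to 52.7 CPM after vehicle, passed the exact permutation test (adjusted p = 0.0171) but not the model (log2 fold change 0.23, SE 0.17, edgeR adjusted p = 0.479). The SE of the model is pooled over all groups, so mouse US-1642300 of the non-diabetic group enters it without being in this comparison. Against the non-diabetic group, the SE of H2-D1 was 0.17 with that mouse and 0.11 without it. H2-K1 had a log2 fold change of 0.05, H2-T23 of 0.22, Tap1 of 0.15, Tapbp of -0.08, Psmb8 of 0.07, Psmb9 of 0.60 (SE 0.38) and Nlrc5 of 0.49 (SE 0.39), and none of them passed with edgeR. Limma on quantile-normalised values also called Psmb9 (1.502, adjusted p = 0.0412).

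Against the vehicle-treated mice labelled non-diabetic, with the same FGF1-treated mice, 0 of 10 members passed by edgeR, DESeq2 or limma, and 2, H2-K1 and Tap1, had an unadjusted p under 0.05 by edgeR. Of all genes, 1.54% passed and 16.5% had an unadjusted p under 0.05. Here B2m was from 55.7 to 192 CPM with a median of 60.1 in vehicle-treated mice, and the FGF1-treated mice lay within that range (log2 fold change 0.05, SE 0.16, edgeR adjusted p = 0.947). The wide range was owed to mouse US-1642300, which stood at 192 CPM while the other 6 ran from 55.7 to 65.1 CPM. Without it the log2 fold change of B2m was 0.45 (SE 0.10, edgeR adjusted p = 0.00239), under the threshold of 0.5, again 0 of 10 members passed and 2 had an unadjusted p under 0.05. The median over the members was -0.167 with the mouse and 0.244 without it, and H2-K1, H2-D1, H2-T23, Tap1, Psmb8, Psmb9 and Nlrc5 went from negative to positive values while H2-Q1 went from 0.06 to -0.15. Of the 49 exact permutation tests, 3 had an adjusted p under 0.05 with all mice and 6 without this mouse. The 3 gained were of this comparison, B2m (exact permutation, adjusted p = 0.0049), H2-D1 (difference in mean log2 0.29, adjusted p = 0.00979) and H2-T23 (0.25, adjusted p = 0.0343), all higher after FGF1.

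On Day 5, some other immune genes were called against the diabetic vehicle group, and the difference from the other comparison was not tested. Against the diabetic vehicle group, 2 of 11 class I-like genes, a list that here holds the members H2-Q1 and H2-T23, were higher, Fcgrt, the receptor that recycles antibodies (0.57, edgeR adjusted p = 0.00585), and H2-T24 (0.68, edgeR adjusted p = 0.0101). Beside these lists, 2.85% of all genes were called in this comparison. Of 29 interferon response genes 3 were higher, Trim30a (0.95), Parp14 (0.79) and Ifi27 (0.63), and of 8 class II genes 1, Ctss (0.68). Against the non-diabetic group 0 of 11, 0 of 29 and 0 of 8 of these lists passed by edgeR, with 3, 6 and 2 at an unadjusted p under 0.05, and without mouse US-1642300 0, 2 and 1 passed. Of all 14221 genes, 1.54% passed with that mouse and 250 genes without it. Of 15 microglia markers, 10 were higher, with sums of 422 to 515 CPM after FGF1 and 301 to 344 CPM after vehicle. Against the non-diabetic group, 2 of 15 were higher with all mice and 7 of 15 without mouse US-1642300. Markers of other cells were also higher after FGF1 than in the diabetic vehicle group. Of 10 oligodendrocyte markers 4 were higher, with sums of 6803 to 7738 against 4484 to 6594 CPM, and of 10 astrocyte markers 2, Gfap (1.28) and Aqp4 (1.01), with sums of 5651 to 6181 against 4858 to 5424 CPM. Neither pair of ranges overlapped. Of 6 border macrophage markers 2 were higher, Lyz2 (1.42) and Mrc1 (0.85), with sums of 33.6 to 78.8 against 21.7 to 35.7 CPM, and of 11 tanycyte and ependymal markers 2. The part of these cell types in the level of B2m was not tested.

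H2-Q1 on Day 5 had a median of 1.74 CPM after FGF1, 2.31 CPM in non-diabetic and 2.60 CPM in diabetic vehicle-treated mice. Single mice of all 3 groups were near 0, with lowest values of 0.07, 0 and 0.18 CPM, and the count of 0 allows up to 0.295 CPM. The log2 fold change was 0.06 (SE 0.55, edgeR adjusted p = 0.991) against the non-diabetic and -0.24 (SE 0.53, edgeR adjusted p = 0.862) against the diabetic group. The SE of H2-K1 and H2-D1 in the same comparisons was at most 0.20.

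The vehicle groups of Day 5 were also compared with each other. No member passed by edgeR, DESeq2 or limma, and 5 of 10 (B2m, H2-K1, Tap1, Psmb9 and Nlrc5) had an unadjusted p under 0.05 by edgeR, all lower in the mice labelled diabetic. Of all genes, 0% passed with edgeR and with DESeq2, and 1.36% had an unadjusted p under 0.05. The largest difference was that of Psmb9 (-1.29, SE 0.39, edgeR adjusted p = 1.00). Without mouse US-1642300 none of the 10 had an unadjusted p under 0.05, and that of Psmb9 was -0.35 (SE 0.30).

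On Day 42, 0 of 10 members passed by edgeR, DESeq2 or limma, and 0 of 10 had an unadjusted p under 0.05 by edgeR. Of all genes, 0% were called by edgeR and 5.46% had an unadjusted p under 0.05. Log2 fold changes ran from -0.32 for Psmb8 to 0.10 for B2m. Nlrc5 was at 0.83, 1.20, 1.22, 1.35 and 1.86 CPM after FGF1 and at 0.92, 1.01, 1.28, 2.08 and 2.65 CPM after vehicle. Psmb8 was at 1.55, 2.16, 2.24, 2.80 and 3.28 CPM after FGF1 and at 2.09, 2.12, 3.36, 3.38 and 4.37 CPM after vehicle. Both genes overlapped between the groups. H2-Q1 was at 2.05, 2.49, 2.49, 3.11 and 4.65 CPM after FGF1 and at 1.01, 2.23, 3.43, 3.55 and 4.96 CPM after vehicle (log2 fold change -0.03, SE 0.53, edgeR adjusted p = 1.00).

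The FGF1 effects of different days were compared directly. The effect on Day 5, against non-diabetic vehicle, was smaller than that on Day 1 for Nlrc5 (difference in log2 fold change -2.36, SE 0.52, edgeR adjusted p = 0.000484) and Psmb8 (-1.03, SE 0.34, edgeR adjusted p = 0.0198). These were 2 of 9 members tested, beside 15.8% of all genes. Without mouse US-1642300 the difference of Nlrc5 was -1.43 and still past the thresholds (edgeR adjusted p = 0.00804). The difference of Psmb8 was no longer past the threshold without mouse US-1642300 (-0.61, edgeR adjusted p = 0.105), without vehicle-treated mouse 28 of Day 1 (-0.92, edgeR adjusted p = 0.0623) or without mouse 29 (-0.89, edgeR adjusted p = 0.0575). With limma neither gene passed. Between Day 42 and Day 5, 0 of 10 members differed by edgeR, DESeq2 or limma, and 0 had an unadjusted p under 0.05 by edgeR. Of all genes, 0.717% passed and 9.98% had an unadjusted p under 0.05. Without mouse US-1642300 again 0 passed by edgeR, 2 had an unadjusted p under 0.05, B2m (-0.35) and H2-D1 (-0.40), and the median over the members went from 0.0759 to -0.366.

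Mouse US-1642300, a vehicle-treated mouse of Day 5 labelled non-diabetic, had the highest level of all 47 libraries in 7 of 10 members, against 1.44% of all genes, and exceeded the median of the other 6 mice of its group by over 2-fold in 8 of 10, against 0.668% of all genes. It had 119 CPM of H2-K1 (4.12-fold the median of the other 6), 156 CPM of H2-D1 (3.41-fold), 42.7 CPM of H2-T23 (3.19-fold), 29.8 CPM of Tap1 (5.14-fold), 11.4 CPM of Psmb8 (3.46-fold), 9.54 CPM of Psmb9 (7.66-fold), 11.5 CPM of Nlrc5 (7.53-fold) and 3.24-fold more B2m. The exceptions were Tapbp, at 1.17-fold, and H2-Q1, at 0.11 CPM where the other 6 ranged from 0 to 3.02. B2m, H2-K1, H2-D1, H2-T23, Tap1, Psmb8, Psmb9 and Nlrc5 were thus high together in this mouse, and H2-Q1 was not. The partners of some of these proteins stood lower, with Tap2, the other chain of the transporter, at 1.58-fold, the immunoproteasome subunit Psmb10 at 1.09-fold and the proteasome activators Psme1 and Psme2 at 1.10-fold and 1.07-fold. The Q-region neighbours of H2-Q1 were split in this mouse. H2-Q4 stood at 5.73-fold, the highest of all 47 libraries, and H2-Q2 at 1.02-fold.

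Of 29 interferon response genes, 20 were over 2-fold above the median of the other mice in that library, among them Gbp2 (14.3-fold) and Iigp1 (14.5-fold). So were 6 of 8 class II genes, among them Cd74 (12.6-fold), and 4 of 15 microglia markers. None of the neuron, astrocyte, oligodendrocyte and endothelial markers was. The summed microglia markers stood at 546 CPM, where the median of the group was 331 CPM. Of 6 border macrophage markers 2 were over 2-fold, and the summed hypothalamic markers were the lowest of the group, at 492 CPM beside a median of 639, with Agrp at 0.376-fold. No label sets this mouse apart from its group.

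**Figure D4:**
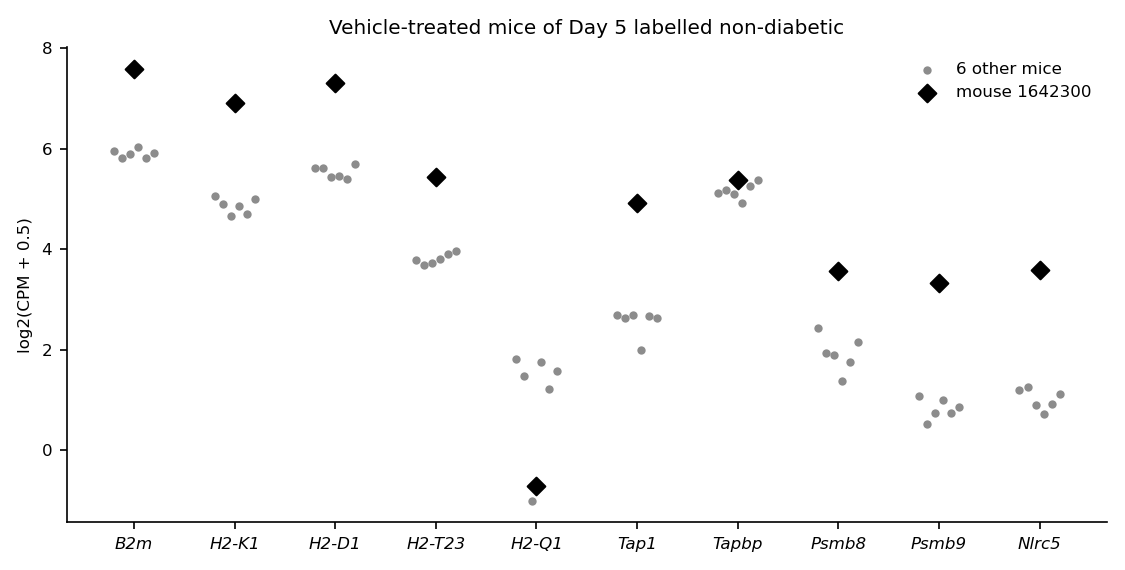
Members in the 7 vehicle-treated mice of Day 5 labelled non-diabetic, as log2(CPM + 0.5), with mouse US-1642300 as a black diamond and the other 6 mice as grey points. The diamond lies above all grey points for 9 of 10 genes, by 1.17-fold over their median for Tapbp and 7.66-fold for Psmb9, and near the lowest for H2-Q1.

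Within groups, after subtraction of the group means from log2(CPM + 0.5), the members varied together, but much of this rested on mouse US-1642300. Over 47 libraries the median Pearson correlation of the 45 pairs was 0.656, and it was 0.442 without mouse US-1642300, with 31 and 18 pairs over 0.5. H2-Q1 had a median correlation of -0.0023 with the other members, and 0.364 without that mouse, when B2m stood at 0.223 and Nlrc5 at 0.308, so that H2-Q1 was then no more apart than these. The 4 genes most like B2m were Ctss (r = 0.862), Gbp2 (0.828), Irgm1 (0.816) and Mpeg1 (0.795), but without the mouse they ranked between 79 and 589. Their r was then lower, 0.592 for Ctss, 0.566 for Mpeg1, 0.447 for Irgm1 and 0.445 for Gbp2. The genes most like H2-Q1 were Osr1 (r = 0.903), Fmod (0.874), Ogn (0.869), Cdh1 (0.866) and Nov (0.866), and all 5 stayed among the first 6 without the mouse. The libraries came from 1 kind of dissection and differed in depth, and no test was made of these correlations.

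Several of the genes most like H2-Q1, such as the matrix proteins Fmod and Ogn, are known from connective tissue, and 15 markers of leptomeningeal fibroblasts, the cells of the inner brain coverings, were looked up after this was seen. Their correlation with H2-Q1 ran from 0.586 to 0.849 with a median of 0.744, where the median of all genes was -0.0191. On Day 5, the mice with H2-Q1 near 0 had the lowest marker sums of their groups, 76.7 and 76.8 CPM in the non-diabetic, 95.8 and 103 CPM in the diabetic and 124 CPM in the FGF1 group. On Day 1 the summed markers were not lower after FGF1, with 109 to 756 CPM against 170 to 295 CPM after vehicle, while H2-Q1 was. The 5 genes most like H2-Q1 had a lower median after FGF1 on that day. These were Fmod with 4.99 against 47.6 CPM, Ogn with 2.95 against 17.02 CPM, Nov with 7.83 against 16.96 CPM, Osr1 with 0.486 against 1.41 CPM and Cdh1 with 3.22 against 4.34 CPM. Single markers went both ways on that day, with the median higher after FGF1 in 7 and lower in 8. The transporters Slc22a6 (0.451 against 7.05 CPM) and Slc6a13 (3.49 against 25.7 CPM) were among those lower, and the matrix genes Col3a1 (37.2 against 7.04 CPM) and Dcn (111 against 41.9 CPM) among those higher. Their correlation with H2-Q1 was 0.849 for Slc22a6, 0.832 for Slc6a13, 0.711 for Col3a1 and 0.697 for Dcn. Abundant genes such as Dcn weigh most in the sum. The list was chosen after values were seen, so none of this was tested.

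**Figure D5:**
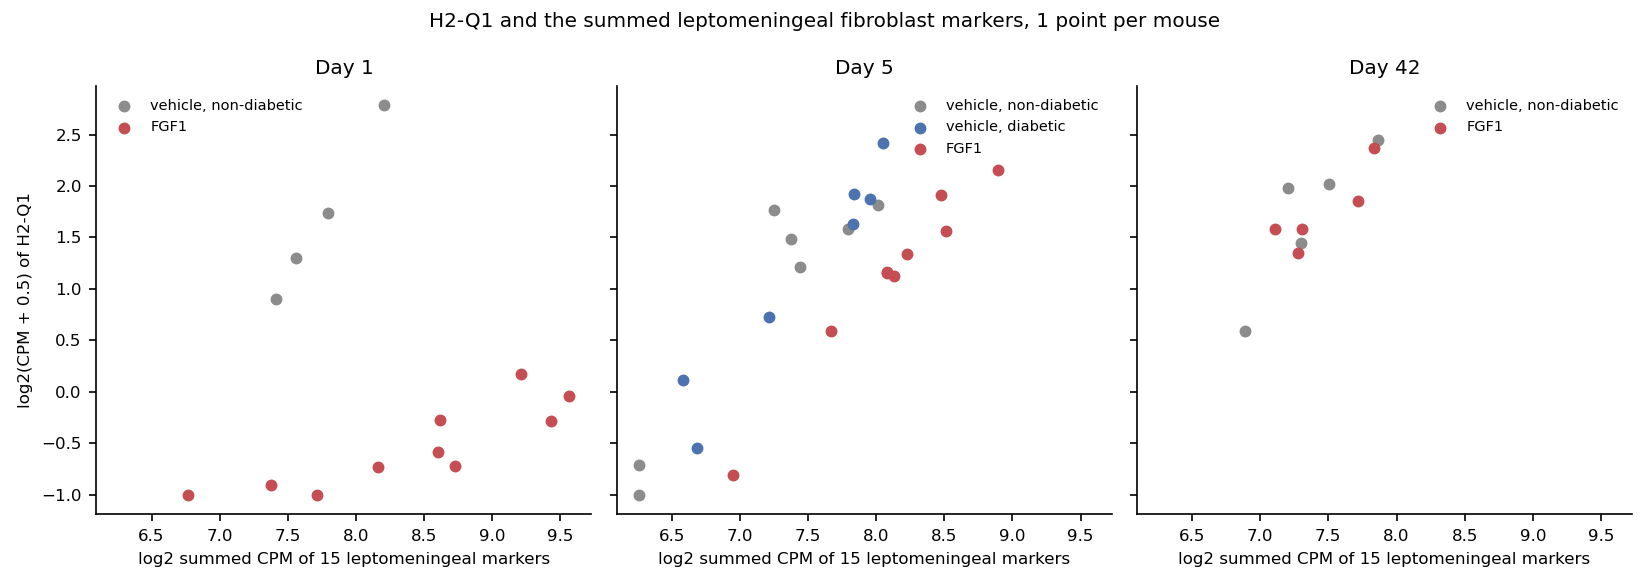
Level of H2-Q1 as log2(CPM + 0.5) against the log2 of the summed CPM of 15 leptomeningeal fibroblast markers, with 1 point per mouse and 1 panel per day. On Day 5 the mice with the lowest H2-Q1 have the lowest marker sums, while on Day 1 the FGF1-treated mice (0 to 0.63 CPM of H2-Q1) lie below the vehicle-treated mice (1.37 to 6.38 CPM), whose marker sums fall inside the range of the FGF1 group.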

How the data were processed

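Gene expression was measured by mRNA sequencing of 1 hypothalamus library for each of 47 Lep ob/ob mice. The authors aligned the reads with STAR and deposited a table of raw counts for each gene, not normalized. The labels name GRCh38 as the build, which is a human one, and a counting program and strand setting are not given in the sources used here. The libraries were strand-specific. The paper's methods describe DESeq2 for the authors' own comparisons.

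Groups were taken from the labels. Counts were scaled by TMM factors, no gene was removed by filterByExpr, and edgeR 4.0.16 (R 4.3.3) was used to fit 1 model with 7 group means. Contrasts were tested by the quasi-likelihood F test with Benjamini-Hochberg adjustment over 14221 genes, and calls needed an adjusted p under 0.05 with a log2 fold change beyond 0.5 in size. Single values and ratios were compared by two-sided exact permutation tests over mice. Exact permutation p-values rest on the mice of the groups compared, which came from 1 cohort per day. The edgeR SE and p-values rest on a spread pooled over all 7 groups. A mouse that stands apart in 1 group thus also enters the SE of comparisons without that group. Coordinates and exon lengths were read from GENCODE for GRCm38, which held 14180 of the gene names, and promoters from RefSeq. Totals of 1.24 M to 47.1 M counts per library set the precision, and a count of 0 was given the limit that 3 counts set.

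The members and lists were chosen with earlier results of these data known. All 10 members are named, with up to 3 called genes of each list, the 5 genes most like B2m and the 5 most like H2-Q1, of which 1 is not reported here, and the 3 table genes on each side of H2-Q1; a 4th gene is named where a count of 4 or fewer was given, and the meningeal markers, GAANNGAAA, the Day 1 list counts without single mice and the names Ifi35 and Irgm1 were added after values were seen. Alternative settings included DESeq2 1.42.0, edgeR with DESeq2 size factors, limma 3.58.1 on quantile-normalised values, a minimum of 10 counts, merged vehicle groups, left-out libraries and, in turn, each vehicle-treated mouse of Day 1 and each mouse of Day 42 left out. The programs were tested on simulated data.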

Additional observations from a re-analysis of the deposited data

Results flagged for a closer look

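Of 70 groups of 4 to 10 mice examined, 1 for each member and group, 9 held a mouse that stood apart from the others by the gap to its neighbour relative to the range; chance gives about 1 in 20. Of these, 7 were mouse US-1642300, the vehicle-treated mouse of Day 5 labelled non-diabetic, as the highest of its group for B2m (192 CPM), H2-K1 (119 CPM), H2-D1 (156 CPM), H2-T23 (42.7 CPM), Tap1 (29.8 CPM), Psmb9 (9.54 CPM) and Nlrc5 (11.5 CPM). These are not independent, since they come from 1 library. The other 2 were FGF1-treated mice of Day 1. Mouse 26 had the highest B2m (126 CPM), and mouse 17 the lowest Psmb9, with 0 counts in a library whose depth allows up to 2.44 CPM.

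The FGF1 effect differed between Day 5 and Day 1 by the test of the difference for Nlrc5 (-2.36 in log2 fold change, edgeR adjusted p = 0.000484; -1.43 without mouse US-1642300, edgeR adjusted p = 0.00804) and for Psmb8 (-1.03, edgeR adjusted p = 0.0198; -0.61 without that mouse, edgeR adjusted p = 0.105). The days were separate cohorts, so cohort and day cannot be told apart.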

How the results depend on the processing

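No paired analysis was possible because the labels number each mouse once and groups share no numbers. On Day 1, Nlrc5 and Psmb8 passed under each alternative fit across all genes that kept them, with log2 fold changes of 1.72 to 2.49 and 0.67 to 1.12, while the exact permutation test over mice gave Psmb8 an adjusted p of 0.147. A minimum of 10 counts in every library left 4 members, without these 2, so the count of members called fell to 0 on Day 1 and to 0 for the difference between Day 5 and Day 1. For that difference limma also called 0, with Psmb8 at -0.69 (adjusted p = 0.124) and Nlrc5 at -1.53 (adjusted p = 0.120), and leaving out single mice gave 1 to 2 members, 1 of them without vehicle-treated mouse 28 or 29 of Day 1 or mouse US-1642300. Against the diabetic vehicle group of Day 5, limma called 2 members in place of 1, and B2m kept log2 fold changes of 0.51 to 0.56. Of the mice in this comparison only those of the 2 deepest FGF1 libraries were left out, so the weight of other single mice was not tested. H2-Q1 on Day 1 moved to -2.69 with limma and to -3.11 without vehicle-treated mouse 28.

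Directions changed in log2 fold changes that did not pass both thresholds. The single mice left out were of Days 1 and 42, with US-1642300 alone from Day 5. Leaving out single mice gave, on Day 1, -0.00743 to 0.224 for B2m, -0.0304 to 0.158 for H2-T23 and -0.257 to 0.155 for Tap1, and limma gave H2-T23 -0.110. Against the non-diabetic group of Day 5 the ranges were -0.497 to 0.0373 for H2-K1, -0.129 to 0.295 for H2-D1, -0.146 to 0.0646 for H2-Q1, -0.135 to 0.251 for H2-T23, -0.651 to 0.0585 for Tap1, -0.173 to 0.240 for Psmb8, -0.684 to 0.249 for Psmb9 and -0.383 to 0.548 for Nlrc5, and in each the value of the opposite sign was that without mouse US-1642300. Merging both vehicle groups without that mouse, chosen after seeing the data like its removal, gave 0.0446, 0.261, -0.199, 0.235, 0.110, 0.143, 0.434 and 0.517 in the same order, with an edgeR adjusted p of 0.0343 for H2-D1, under the threshold of 0.5 in size. Merging them with it gave H2-D1 0.0412, H2-Q1 -0.100, H2-T23 0.0342 and Nlrc5 0.000561, and limma gave H2-D1 0.0578, H2-T23 0.00697 and Nlrc5 0.252. Against the diabetic group, H2-Q1 turned to 0.0481 with limma and to 0.0649 without the 2 deepest FGF1 libraries. On Day 42 the ranges over single mice left out were -0.0458 to 0.190 for H2-K1, -0.189 to 0.0692 for H2-D1, -0.263 to 0.217 for H2-Q1, -0.266 to 0.105 for H2-T23, -0.187 to 0.208 for Tap1 and -0.115 to 0.000813 for Tapbp, and limma gave H2-Q1 0.0787. The log2 ratio of H2-Q1 to H2-K1 plus H2-D1 turned to -0.0209 against the non-diabetic group without mouse US-1642300 and to 0.255 against the diabetic group without the 2 deepest libraries, and ran from -0.210 to 0.318 on Day 42 over the mice left out. The exact permutation tests past the threshold went from 3 to 6 without mouse US-1642300, the gains being B2m, H2-D1 and H2-T23 against the non-diabetic group. Causes of these shifts, other than the members and mice left out, were not tested. Counts of 0 for H2-Q1 allow up to 2.44, 0.0796 and 0.295 CPM in the 3 libraries that had them, and that of Psmb9 up to 2.44 CPM.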
